A study of Homo sapiens with 9 samples.

Results

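Mitochondrial respiration is carried out by an electron transport chain and an ATP synthase whose subunits are encoded in both genomes of the cell. Complex I passes electrons from NADH, and complex II from succinate, to coenzyme Q. Complex III hands them to cytochrome c, complex IV to oxygen, and complex V uses the proton gradient to make ATP. The subunits encoded in the nucleus are made in the cytosol and imported, and their genes are known to be driven in many tissues by the transcription factors NRF1, GABPA and YY1 and by coactivators of the PGC-1 family.

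The 87 genes described here are the protein-coding genes of the expression table whose symbols mark them as nuclear-encoded subunits of these 5 complexes, among 36810 genes in all and 17169 protein-coding ones. They comprise 37 genes of complex I, 4 of complex II, 10 of complex III, 16 of complex IV and 20 of complex V. Pseudogenes and assembly factors were left out. NDUFA4 and NDUFA4L2, which carry a complex I name, were placed with complex IV. Genes were tested if they reached 1 FPKM (fragments scaled to exon length and library depth) in at least 3 of 9 libraries, which 79 of the 87 members did, alongside 13657 genes in total.

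The cells were 143B, a long-established human osteosarcoma line, grown in RPMI-1640 medium with fetal bovine serum, and their messenger RNA was sequenced. They received 0.5 µM of XD23, known from the labels by a code name only, for 48 h (3 libraries) or for 24 h (3 libraries), and 3 control libraries were labelled 0 h. No vehicle is named, and no untreated cells of 24 h or 48 h were among the samples, so culture time and the compound cannot be told apart. The labels do not say whether the libraries within a group are separate cultures, and p-values measure the spread between libraries only. In bulk RNA, fewer cells of a kind and less RNA per cell cannot be told apart either, and a change in a messenger RNA level is not a measurement of protein or of respiration.

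Total depth, worked out from the smallest steps of the values, was between 18341542 and 22901830 fragments per library. VIM, a mesenchymal filament, stood at 297 to 389 FPKM in the 9 libraries and the osteoblast lineage factor RUNX2 at 4.06 to 6.61 FPKM. COL1A2, a chain of bone collagen, was at 0.0548 FPKM at most and the leukocyte marker PTPRC at 0.0145 FPKM at most, while the epithelial keratin KRT18 stood at 118 to 182 FPKM. The third 24 h library stood apart for the genes described here. Of the 79 tested members, 75 were higher in it than in both other 24 h libraries, against 38.4% of all tested genes. Its median excess over the mean of those libraries was 0.26 on the log2 scale for the members and also 0.26 for 82 cytosolic ribosomal protein genes, against -0.01 for all tested genes. The main counts and medians of the members that use this library are therefore given with and without it.

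After 48 h with XD23, messenger RNAs for subunits of all 5 complexes were lower than in the control. Of the 79 tested members, 29 fell and 0 rose at an adjusted p under 0.05 (limma on log2(FPKM + 1), Benjamini-Hochberg over all tested genes). That is 36.7% of them, where 15.2% of all tested genes were called lower and 13.3% higher. The median log2 fold change over the tested members was -0.24, with a range of -0.53 to 0.09, against a median of -0.02 over all tested genes. Fold changes were below 0 for 75 of 79 members. At an unadjusted p under 0.05, 43 members were lower and 0 higher, against 22.1% and 18.0% of all tested genes. In 56 members (70.9%) the 3 libraries at 48 h were all below the 3 control libraries, which held for 27.7% of all tested genes. Their summed level made up 0.976%, 0.936% and 1.02% of all FPKM at 48 h, against 1.20%, 1.12% and 1.15% in the control. These changes were small for single genes: the greatest, in COX7B, left the 48 h mean at 0.689 times the control mean.

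By complex, 9 of 35 tested members fell in complex I, 3 of 4 in complex II, 3 of 10 in complex III, 5 of 12 in complex IV and 9 of 18 in complex V. The medians were -0.19 for complex I, -0.27 for complex II, -0.22 for complex III, -0.26 for complex IV and -0.27 for complex V. Whether the complexes differed from one another was not tested. The third 24 h library enters this comparison only through the estimate of the spread and the set of genes that pass the filter. Without it 49 members fell, among them all 29, and 20.5% of the 13543 genes then tested were called lower. The number fell to 12 without control library 1, to 12 without 48 h library 2 and to 17 without 48 h library 1, where 10.3%, 10.1% and 11.3% of all tested genes were called lower. In 12 members the call held under all 20 alternative settings and left-out libraries: NDUFA5, NDUFS1, NDUFS6, SDHB, SDHC, CYC1, UQCRC2, COX7B, ATP5F1B, ATP5F1C, ATP5MF and ATP5PF.

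**Figure D1:**
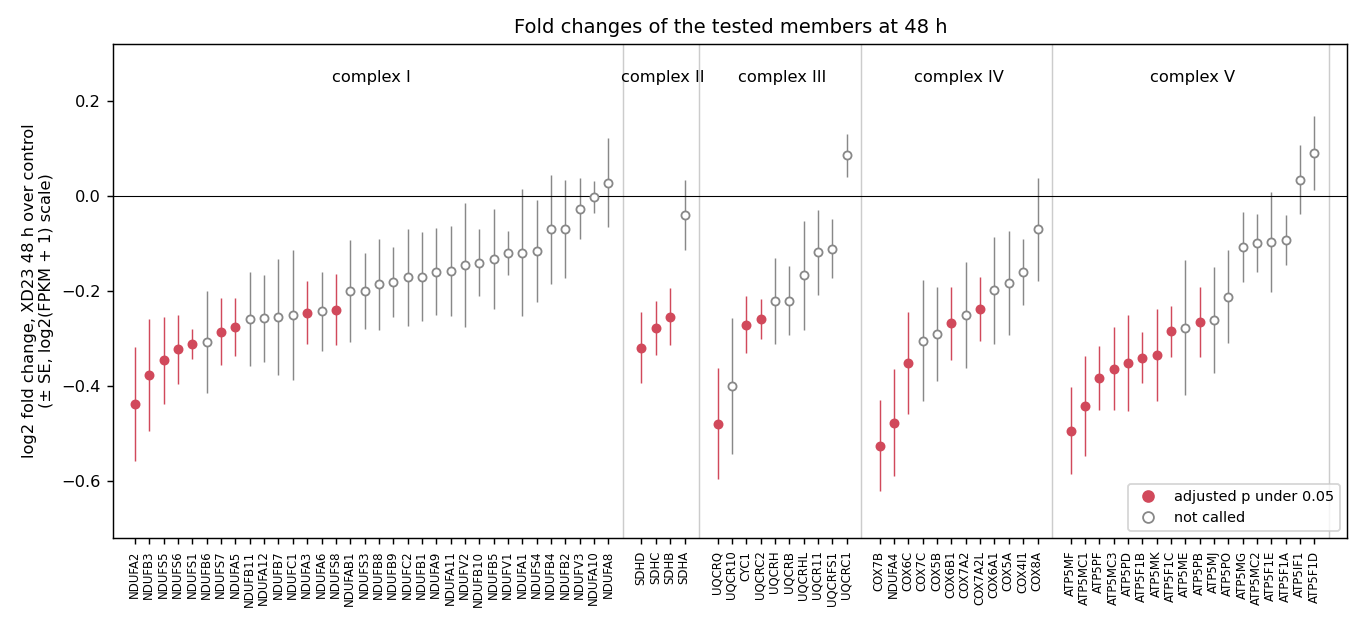
Log2 fold change of 78 tested members at XD23 48 h over control (vertical axis, log2(FPKM + 1) scale, bars are standard errors from limma), grouped by complex and ordered within it. Filled points mark the 29 members with an adjusted p under 0.05, all of them below 0, and the open points spread from -0.40 to 0.09.

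Gene length moved with this result. Fold changes at 48 h over control correlated with exon length across all tested genes (Spearman rho 0.22 over 13586 genes, which share the same libraries), so shorter genes tended to lie lower. Many subunit genes are short, with a median exon length of 2462 bases, against 4354 bases for all tested genes. Among genes under 1500 bases the median fold change was -0.26 for 22 members, against -0.11 for all 2370 genes of that length. From 1500 bases upwards it was -0.21 for 57 members, against -0.01 for 11216 genes. After each library was adjusted for length, 26 members fell and 1 rose (UQCRC1). Of all 13586 genes tested in that setting, 1946 were called lower (14.3%) and 2111 higher. The members' median was -0.17 against 0.00 for all genes.

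Promoters were read for the members with a RefSeq window (GRCh38.p14, 250 bases before to 50 after the annotated start), which 68 members had, 64 of them tested. The windows of 4 members follow, of the member with the greatest fall (COX7B), of the member that fell most in complex III (UQCRQ), of SDHD, which fell and holds 2 of the motifs searched, and of UQCRC1, whose fold change was above 0. Capitals mark matches to the NRF1 motif GCGCATGCG, the ETS motif CCGGAAGT bound by GABPA, or the YY1 motif AAGATGGCG, on either strand.
COX7B: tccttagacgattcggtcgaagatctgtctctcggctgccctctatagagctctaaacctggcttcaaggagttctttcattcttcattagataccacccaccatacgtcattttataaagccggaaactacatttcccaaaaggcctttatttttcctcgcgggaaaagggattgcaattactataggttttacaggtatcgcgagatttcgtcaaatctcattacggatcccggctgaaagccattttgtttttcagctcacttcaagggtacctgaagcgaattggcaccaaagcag
UQCRQ: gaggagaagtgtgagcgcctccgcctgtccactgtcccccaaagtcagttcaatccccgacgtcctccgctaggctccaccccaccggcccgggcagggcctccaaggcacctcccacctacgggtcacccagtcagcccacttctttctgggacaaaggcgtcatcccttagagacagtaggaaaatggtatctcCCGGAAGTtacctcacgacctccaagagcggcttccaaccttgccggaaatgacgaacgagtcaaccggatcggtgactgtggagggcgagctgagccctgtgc
SDHD: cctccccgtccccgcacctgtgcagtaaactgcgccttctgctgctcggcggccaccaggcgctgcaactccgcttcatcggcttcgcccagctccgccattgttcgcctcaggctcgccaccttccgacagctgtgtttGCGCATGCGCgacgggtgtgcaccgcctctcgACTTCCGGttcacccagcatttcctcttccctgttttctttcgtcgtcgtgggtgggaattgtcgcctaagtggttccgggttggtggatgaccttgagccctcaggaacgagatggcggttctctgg
UQCRC1: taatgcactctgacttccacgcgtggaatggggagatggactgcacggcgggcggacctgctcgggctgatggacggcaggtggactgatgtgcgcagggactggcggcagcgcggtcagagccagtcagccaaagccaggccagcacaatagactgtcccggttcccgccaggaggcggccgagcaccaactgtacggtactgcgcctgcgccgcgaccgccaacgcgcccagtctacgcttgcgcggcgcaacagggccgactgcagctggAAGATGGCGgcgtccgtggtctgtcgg
The COX7B window at chrX:77899218-77899517 (plus strand) held none of these motifs. UQCRQ, at chr5:132866392-132866691 (plus strand), held the ETS motif 54 bases before the start. SDHD, at chr11:112086623-112086922 (plus strand), held the NRF1 motif, on both strands as a palindrome, and the ETS motif on the minus strand. UQCRC1, at chr3:48609597-48609896 (minus strand), held the YY1 motif just after the start.

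Across the 64 tested members, the NRF1 motif was in 17.2% of promoters, the ETS motif also in 17.2% and the YY1 motif in 12.5%. In 8920 tested protein-coding genes with a window, the shares were 4.42%, 10.7% and 5.06%. The share depends on the letters searched: the completed palindrome of the NRF1 motif, counted first, was in 6.25% of members and 2.79% of those genes. Of 21 members that fell and have a window, 6 held the NRF1 motif (28.6%), as did 5 of 43 members that were not called (11.6%). The ETS motif was in the same numbers, 6 of 21 and 5 of 43, with 2 members, ATP5PF and SDHD, holding both motifs, and the YY1 motif was in 3 of 21 and 5 of 43. Of all 64 tested members, other motifs were in smaller shares than of the 8920: GGGCGG (SP1) in 64.1% against 79.4%, CACGTG (E-box) in 9.38% against 13.0%, CCAAT in 35.9% against 43.5% and ACGTGC (hypoxia response, which can overlap the E-box) in 7.81% against 11.5%. Among the 21 members that fell, CCAAT was in 11 (52.4%) and the E-box in 3 (14.3%), and among the 43 not called CCAAT was in 12 (27.9%) and the E-box in 3 (6.98%). Member promoters had a median GC content of 59.8%, against 65.2%, and these letter matches are descriptions of sequence, not sites of binding.

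Complex I has 7 nuclear-encoded core subunits, which carry the flavin and the iron-sulphur clusters, and 3 of them fell at 48 h: NDUFS1, NDUFS7 and NDUFS8. NDUFS1, which holds iron-sulphur clusters of the NADH-oxidising arm, stood at 18.8, 18.5 and 18.3 FPKM at 0 h, 17.8, 17.6 and 17.3 FPKM at 24 h and 14.6, 14.9 and 14.7 FPKM at 48 h. The spread within each group was narrow, and all 3 libraries at 48 h lay below the other 6. Its log2 fold change over control was -0.31 ± 0.03 (SE, adjusted p = 0.000287). NDUFV1, which binds NADH and the flavin, stood at 44.3, 41.7 and 43.9 FPKM at 0 h, 42.8, 42.7 and 45.5 FPKM at 24 h and 38.4, 39.0 and 41.9 FPKM at 48 h. Its log2 fold change was -0.12 ± 0.05 (SE, adjusted p = 0.0839), and it was called without the third 24 h library (adjusted p = 0.0446). NDUFS7 was at 1.64 to 1.93 FPKM at 48 h and 2.11 to 2.51 FPKM in the control, and 49.1% of its exon length overlaps other genes.

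Of 28 tested accessory subunits of complex I, which stabilise and regulate the enzyme, 6 fell. NDUFA2 stood at 17.8, 15.3 and 14.3 FPKM at 0 h, 15.9, 14.7 and 18.0 FPKM at 24 h and 11.0, 9.89 and 13.5 FPKM at 48 h, with a log2 fold change at 48 h over control of -0.44 ± 0.12 (SE, adjusted p = 0.0254). All 3 of its libraries at 48 h lay below the other 6. NDUFB3 stood at 23.5, 20.0 and 20.9 FPKM at 0 h, 19.3, 22.9 and 26.7 FPKM at 24 h and 16.3, 14.6 and 18.2 FPKM at 48 h, and its log2 fold change was -0.38 ± 0.12 (SE, adjusted p = 0.0426). NDUFS5, the most abundant member of complex I per length, stood at 221, 192 and 192 FPKM at 0 h, 196, 205 and 239 FPKM at 24 h and 162, 144 and 169 FPKM at 48 h. Its libraries at 48 h again lay below the other 6, with a log2 fold change of -0.35 ± 0.09 (SE, adjusted p = 0.0228). NDUFS6 stood at 82.4, 85.3 and 86.5 FPKM at 0 h, 80.5, 85.6 and 97.3 FPKM at 24 h and 67.2, 63.1 and 72.7 FPKM at 48 h, with a log2 fold change of -0.32 ± 0.07 (SE, adjusted p = 0.0117). By contrast NDUFA10 stood at 10.2, 9.97 and 9.88 FPKM at 0 h, 9.77, 9.95 and 9.78 FPKM at 24 h and 10.1, 9.83 and 10.1 FPKM at 48 h, with overlapping groups, and NDUFV3 stood at 4.99, 4.28 and 4.31 FPKM at 0 h, 4.63, 4.71 and 5.22 FPKM at 24 h and 4.49, 4.21 and 4.54 FPKM at 48 h. Their log2 fold changes were -0.0019 ± 0.03 (SE, adjusted p = 0.975) for NDUFA10 and -0.03 ± 0.06 (SE, adjusted p = 0.795) for NDUFV3. NDUFA3 and NDUFA5 fell as well. The calls of NDUFA2, NDUFB3 and NDUFS5 did not hold without control library 1 (adjusted p = 0.0876, 0.136 and 0.0796) or without 48 h library 2 (adjusted p = 0.0883, 0.141 and 0.0811). Of the 20 alternative settings and left-out libraries, 10 ended the call of NDUFB3, 5 that of NDUFA2 and 5 that of NDUFS5. With length adjustment NDUFB3 and NDUFS5 were not called (adjusted p = 0.0598 and 0.0654).

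Complex II, succinate dehydrogenase, is encoded wholly in the nucleus, and its iron-sulphur subunit SDHB and both membrane anchors SDHC and SDHD fell. SDHB stood at 38.6, 39.5 and 37.7 FPKM at 0 h, 36.7, 36.0 and 40.2 FPKM at 24 h and 32.6, 29.7 and 34.4 FPKM at 48 h, with a log2 fold change at 48 h over control of -0.25 ± 0.06 (SE, adjusted p = 0.0139). SDHC stood at 51.8, 48.4 and 47.4 FPKM at 0 h, 47.9, 48.8 and 53.5 FPKM at 24 h and 40.9, 38.2 and 42.2 FPKM at 48 h, with a log2 fold change of -0.28 ± 0.06 (SE, adjusted p = 0.00755). SDHD stood at 27.1, 24.8 and 25.0 FPKM at 0 h, 25.0, 26.3 and 31.1 FPKM at 24 h and 20.8, 19.7 and 20.4 FPKM at 48 h, with a log2 fold change of -0.32 ± 0.07 (SE, adjusted p = 0.0131). In each of these genes the 3 libraries at 48 h were below the other 6. SDHA, the flavoprotein that oxidises succinate, was listed far lower than its partners per length, at 2.50, 2.24 and 2.14 FPKM at 0 h, 2.17, 1.94 and 2.41 FPKM at 24 h and 2.13, 2.15 and 2.33 FPKM at 48 h. Its groups overlapped, with a log2 fold change of -0.04 ± 0.07 (SE, adjusted p = 0.72). SDHA and SDHD have 3 named pseudogenes each, SDHC has 4 and SDHB has 0. Counting could split reads among near-identical copies, which was not tested, so the level of SDHA is uncertain. The SDHD call did not hold without control library 1 (adjusted p = 0.0513) or 48 h library 2 (adjusted p = 0.0501).

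In complex III, cytochrome c1 (CYC1), the core protein UQCRC2 and the small subunit UQCRQ fell. CYC1 stood at 81.6, 78.7 and 83.8 FPKM at 0 h, 78.5, 80.6 and 91.4 FPKM at 24 h and 67.0, 64.7 and 70.1 FPKM at 48 h, with a log2 fold change at 48 h over control of -0.27 ± 0.06 (SE, adjusted p = 0.0105). UQCRC2 stood at 47.2, 44.2 and 47.0 FPKM at 0 h, 43.8, 42.9 and 46.5 FPKM at 24 h and 38.3, 37.7 and 39.0 FPKM at 48 h, with a log2 fold change of -0.26 ± 0.04 (SE, adjusted p = 0.00251). Both genes were lower in every library at 48 h than in any other. UQCRC1, the partner of UQCRC2 in the core of the complex, stood at 58.3, 55.5 and 56.5 FPKM at 0 h, 54.6, 52.9 and 57.6 FPKM at 24 h and 60.5, 57.7 and 62.7 FPKM at 48 h. Its libraries at 48 h lay above the 3 of 24 h and overlapped the control, with a log2 fold change of 0.09 ± 0.04 (SE, adjusted p = 0.193). UQCRFS1, the Rieske iron-sulphur protein, stood at 30.4, 29.9 and 31.0 FPKM at 0 h, 28.1, 29.4 and 33.8 FPKM at 24 h and 28.4, 27.1 and 28.8 FPKM at 48 h, with a log2 fold change of -0.11 ± 0.06 (SE, adjusted p = 0.218), and it was called lower without the third 24 h library (adjusted p = 0.0312).

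The small subunit UQCRQ, also known as a ubiquinone-binding protein, stood at 22.7, 18.8 and 19.9 FPKM at 0 h, 18.1, 20.2 and 25.4 FPKM at 24 h and 15.2, 13.2 and 14.7 FPKM at 48 h. All libraries at 48 h were below the other 6, and the log2 fold change was -0.48 ± 0.12 (SE, adjusted p = 0.0156). This call did not hold without control library 1 (adjusted p = 0.0584) or 48 h library 2 (adjusted p = 0.0602). UQCR10 stood at 34.2, 30.8 and 31.5 FPKM at 0 h, 30.6, 29.8 and 46.4 FPKM at 24 h and 25.0, 23.0 and 24.4 FPKM at 48 h, with the third 24 h library far above the rest. Its log2 fold change was -0.40 ± 0.14 (SE, adjusted p = 0.0687), and the adjusted p was 0.000498 without that library. UQCRHL, a near-identical copy of UQCRH, stood at 4.40, 3.44 and 3.53 FPKM at 0 h, 3.47, 3.62 and 4.69 FPKM at 24 h and 2.85, 3.41 and 3.52 FPKM at 48 h, with a log2 fold change of -0.17 ± 0.11 (SE, adjusted p = 0.311), and reads of the pair could be split between them.

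Complex IV showed the greatest single fall. COX7B, a small subunit of cytochrome c oxidase, stood at 57.8, 50.7 and 52.8 FPKM at 0 h, 49.1, 51.3 and 63.9 FPKM at 24 h and 37.0, 34.9 and 39.3 FPKM at 48 h. The 3 libraries at 48 h lay below the other 6, and the log2 fold change over control was -0.53 ± 0.10 (SE, adjusted p = 0.00444). NDUFA4 stood at 50.2, 44.8 and 47.2 FPKM at 0 h, 43.5, 44.8 and 59.5 FPKM at 24 h and 33.3, 31.5 and 36.6 FPKM at 48 h, with the same separation and a log2 fold change of -0.48 ± 0.11 (SE, adjusted p = 0.0138). COX6C stood at 49.5, 42.3 and 49.6 FPKM at 0 h, 43.3, 46.3 and 57.2 FPKM at 24 h and 35.6, 34.5 and 40.0 FPKM at 48 h, with a log2 fold change of -0.35 ± 0.11 (SE, adjusted p = 0.0386). COX6B1, which faces the intermembrane space, stood at 49.0, 50.5 and 48.5 FPKM at 0 h, 48.7, 52.6 and 60.7 FPKM at 24 h and 39.5, 39.2 and 44.0 FPKM at 48 h, with a log2 fold change of -0.27 ± 0.08 (SE, adjusted p = 0.0308). COX7A2L, which takes part in joining complexes III and IV, fell as well. The calls of NDUFA4, COX6C and COX6B1 did not hold without control library 1 (adjusted p = 0.0520, 0.118 and 0.0763) or 48 h library 2 (adjusted p = 0.0540, 0.123 and 0.102). Of the 20 alternative settings and left-out libraries, 7 ended the call of COX6C, 8 that of COX6B1 and 2 that of NDUFA4. Median-of-ratios scaling ended the calls of COX6C and COX6B1 (adjusted p = 0.0568 and 0.0539), and length adjustment that of COX6B1 (adjusted p = 0.0605).

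Among the subunits next to the catalytic core, COX4I1, whose product contacts the core early in assembly, stood at 56.4, 54.6 and 56.7 FPKM at 0 h, 53.4, 54.1 and 64.6 FPKM at 24 h and 49.9, 48.0 and 52.1 FPKM at 48 h. Its log2 fold change was -0.16 ± 0.07 (SE, adjusted p = 0.12), and the adjusted p was 0.00843 without the third 24 h library. COX5A stood at 80.9, 74.2 and 72.9 FPKM at 0 h, 70.8, 72.6 and 93.3 FPKM at 24 h and 65.5, 61.1 and 74.3 FPKM at 48 h, with a log2 fold change of -0.18 ± 0.11 (SE, adjusted p = 0.248). COX5B stood at 54.4, 48.4 and 49.3 FPKM at 0 h, 49.5, 48.1 and 63.9 FPKM at 24 h and 39.3, 42.0 and 42.4 FPKM at 48 h, with a log2 fold change of -0.29 ± 0.10 (SE, adjusted p = 0.0582), and was called without the third 24 h library (adjusted p = 0.00296). COX8A stood at 127, 113 and 107 FPKM at 0 h, 120.4, 119 and 149 FPKM at 24 h and 115, 97.3 and 119 FPKM at 48 h. Its libraries at 48 h overlapped the control and lay just below the 3 of 24 h, with a log2 fold change of -0.07 ± 0.11 (SE, adjusted p = 0.674). The isoforms known from muscle, testis or hypoxic tissue were near 0 and were not tested. COX7A1, the heart and skeletal muscle isoform, was at 0.0835 to 0.315 FPKM in 8 libraries and at 1.45 FPKM in control library 2. COX6B2 was at 0.119 FPKM at most, COX8C at 0.403 FPKM at most and NDUFA4L2, known as a target of hypoxia signalling, at 0.379 to 0.874 FPKM.

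ATP synthase has a catalytic head (F1) of 5 kinds of subunit, of which ATP5F1B and ATP5F1C fell. ATP5F1B, the catalytic beta subunit and the most abundant member per length, stood at 414, 398 and 401 FPKM at 0 h, 392, 392 and 443 FPKM at 24 h and 324, 305 and 327 FPKM at 48 h. All libraries at 48 h were below the other 6, with a log2 fold change over control of -0.34 ± 0.05 (SE, adjusted p = 0.00219). ATP5F1A, the alpha subunit that alternates with beta in the head, stood at 54.1, 50.7 and 52.6 FPKM at 0 h, 52.1, 51.4 and 58.4 FPKM at 24 h and 49.4, 47.7 and 50.3 FPKM at 48 h. Its libraries at 48 h were also below the other 6, by a smaller margin, with a log2 fold change of -0.09 ± 0.05 (SE, adjusted p = 0.225). ATP5F1D, the delta subunit of the central stalk, stood at 17.6, 15.7 and 16.7 FPKM at 0 h, 17.7, 17.4 and 21.0 FPKM at 24 h and 18.3, 16.6 and 18.6 FPKM at 48 h, with a log2 fold change of 0.09 ± 0.08 (SE, adjusted p = 0.423). ATP5IF1, the inhibitor that binds the head when the gradient fails, stood at 20.4, 18.6 and 20.0 FPKM at 0 h, 20.8, 20.6 and 24.4 FPKM at 24 h and 19.6, 19.3 and 21.6 FPKM at 48 h, with a log2 fold change of 0.03 ± 0.07 (SE, adjusted p = 0.768). Whether the fold changes of ATP5F1B and ATP5F1A differed from each other was not tested.

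In the stalk and the membrane part of ATP synthase, 3 of 4 peripheral stalk genes (ATP5PB, ATP5PD and ATP5PF), 2 of 3 genes of the proton-carrying c-ring and 2 of 5 tested small membrane subunits fell. ATP5PF stood at 27.9, 25.2 and 26.3 FPKM at 0 h, 26.8, 27.0 and 30.5 FPKM at 24 h and 19.3, 19.2 and 21.7 FPKM at 48 h, with a log2 fold change of -0.38 ± 0.07 (SE, adjusted p = 0.00367). ATP5MF stood at 36.1, 29.7 and 32.5 FPKM at 0 h, 30.6, 34.1 and 33.9 FPKM at 24 h and 25.6, 20.5 and 22.8 FPKM at 48 h, with a log2 fold change of -0.49 ± 0.09 (SE, adjusted p = 0.00471). Both were lower in all libraries at 48 h than in the other 6. ATP5MC1 stood at 21.0, 18.4 and 17.5 FPKM at 0 h, 20.0, 20.3 and 25.1 FPKM at 24 h and 15.1, 12.2 and 13.8 FPKM at 48 h, with a log2 fold change of -0.44 ± 0.11 (SE, adjusted p = 0.0149). ATP5MC3 stood at 43.3, 41.0 and 40.1 FPKM at 0 h, 40.5, 38.1 and 48.4 FPKM at 24 h and 32.6, 29.6 and 34.0 FPKM at 48 h, with a log2 fold change of -0.36 ± 0.09 (SE, adjusted p = 0.0144). The calls of ATP5MC1 and ATP5MC3 did not hold without control library 1 (adjusted p = 0.0557 and 0.0539) or 48 h library 2 (adjusted p = 0.0556 and 0.0552).

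The c-ring genes ATP5MC1, ATP5MC2 and ATP5MC3 encode the same mature protein behind different import signals, so their levels add to one supply. Their sum was 80.2, 74.5 and 81.5 FPKM at 48 h, against 100.2, 93.8 and 93.5 FPKM in the control. ATP5MC2, which was not called (log2 fold change -0.10), made up 40.5%, 43.9% and 41.3% of that sum at 48 h, against 35.8%, 36.6% and 38.4% in the control. The shares did not overlap between the groups.

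**Figure D2:**
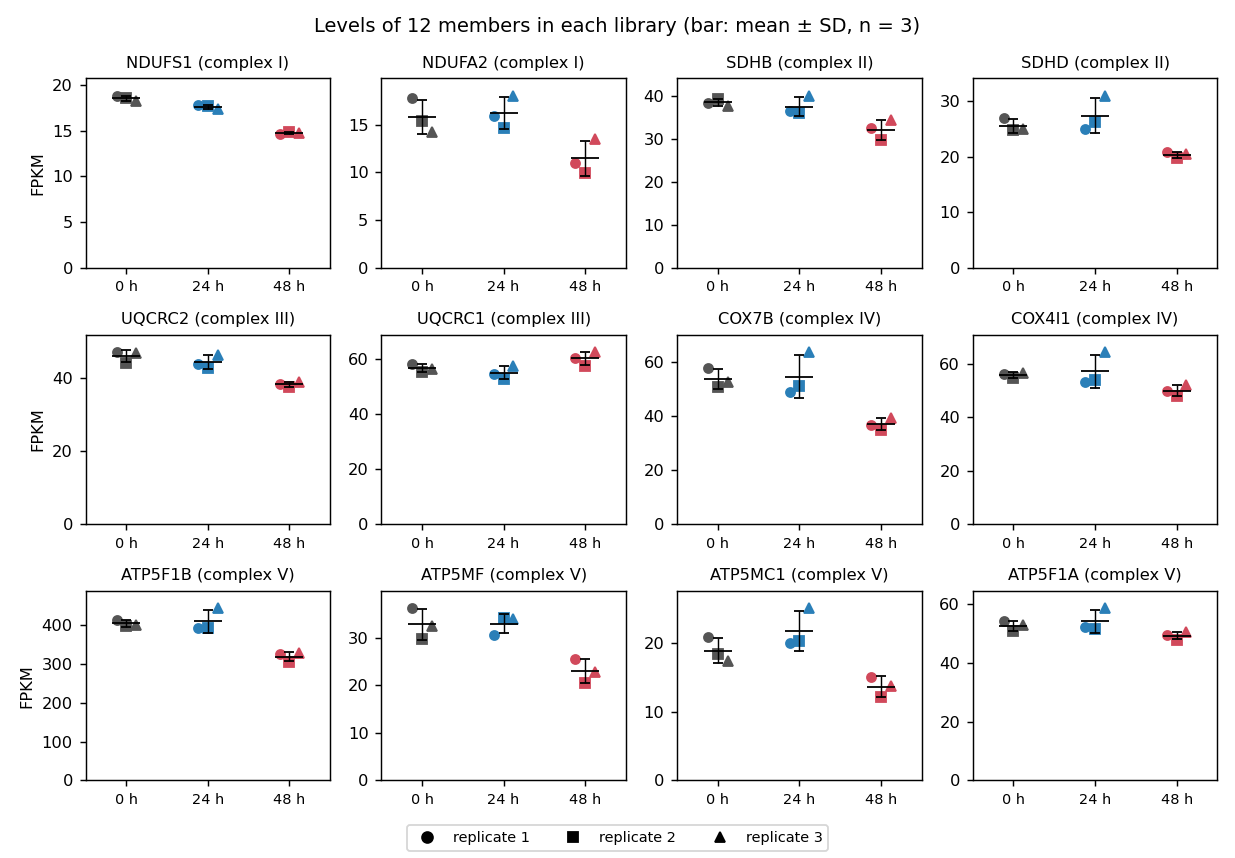
FPKM of 12 members in each library at 0 h (control), 24 h and 48 h with XD23, with the mean and SD of 3 libraries as bars and a marker shape per replicate. In every panel except UQCRC1 the 3 points at 48 h lie below the other 6, and the third 24 h library (triangle) is the highest point of 8 panels.

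After 24 h with XD23, 0 members were called in either direction by limma, where 0.00732% of all tested genes (1 gene) were called lower and 0 higher. At an unadjusted p under 0.05 there were 1015 genes, NDUFA3 the only member among them (higher). The members' median log2 fold change was 0.05, with a range of -0.10 to 0.20, and 14 of 79 were below 0. Without the third 24 h library the median was -0.03 and 56 were below 0, again with 0 called. In the mean over the tested members, the 24 h libraries stood at 4.61, 4.64 and 4.89 log2(FPKM + 1), against 4.71, 4.60 and 4.64 in the control. The first pair of 24 h libraries lay within the control range and the third above it. Of the 79 tested members, 69 had their highest value of all 9 libraries in the third one. NDUFS1 was the only tested member below the control in all 3 libraries at 24 h, while NDUFA3 and ATP5IF1 were above it in all 3; 8.38% and 4.81% of all tested genes were separated in this way.

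**Figure D3:**
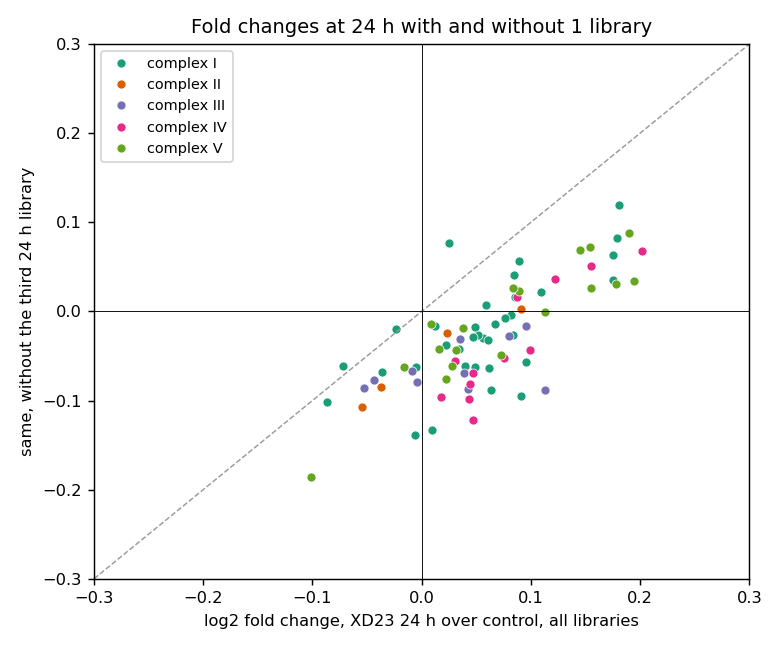
Log2 fold change of each tested member at XD23 24 h over control with all libraries (horizontal axis) and without the third 24 h library (vertical axis), coloured by complex, with the line of equal values dashed. Most points lie below the line: the median is 0.05 with all libraries and -0.03 without that library.

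Between 48 h and 24 h with XD23, 42 of 79 members fell and 0 rose, where 16.3% of all tested genes were called lower and 16% higher. At an unadjusted p under 0.05, 58 were lower and 1, UQCRC1, higher, against 22.2% and 21.0% of all tested genes. The members' median was -0.27, against -0.01 over all tested genes. These 2 comparisons share the 48 h libraries, so their calls are not independent, and 27 members were called in both. The fall was 15 of 35 in complex I, 3 of 4 in complex II, 5 of 10 in complex III, 8 of 12 in complex IV and 11 of 18 in complex V. In the same order, the counts without the third 24 h library were 12, 3, 5, 8 and 9. ATP5MC1 had the greatest change, with -0.63 ± 0.11 (SE, adjusted p = 0.00241). COX7B followed, with -0.54 ± 0.10 (SE, adjusted p = 0.00314), and then UQCRQ, with -0.52 ± 0.12 (SE, adjusted p = 0.0095). This order rests on the third 24 h library: without it ATP5MC1 came first with -0.53, ATP5MF next with -0.48 and COX7B after it with -0.43, and UQCRQ stood at -0.39. Without the third 24 h library, 37 members fell, all of them among the 42, where 17.6% of all tested genes were called lower. The median was then -0.19, and UQCRC1 was called higher.

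In the mean over each complex, the 48 h libraries lay below all 6 others in complexes I to V. Complex IV, for example, averaged 5.85, 5.72 and 5.78 log2(FPKM + 1) at 0 h, 5.73, 5.77 and 6.10 at 24 h and 5.49, 5.43 and 5.61 at 48 h. Of single members, 49 of 79 were lower in all 3 libraries at 48 h than in all of the other 6, against 18.8% of all tested genes. The cytosolic ribosomal protein genes, another group of short and abundant messages, averaged 7.47, 7.43 and 7.58 at 48 h and 7.60, 7.49 and 7.54 in the control, which overlap.

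**Figure D4:**
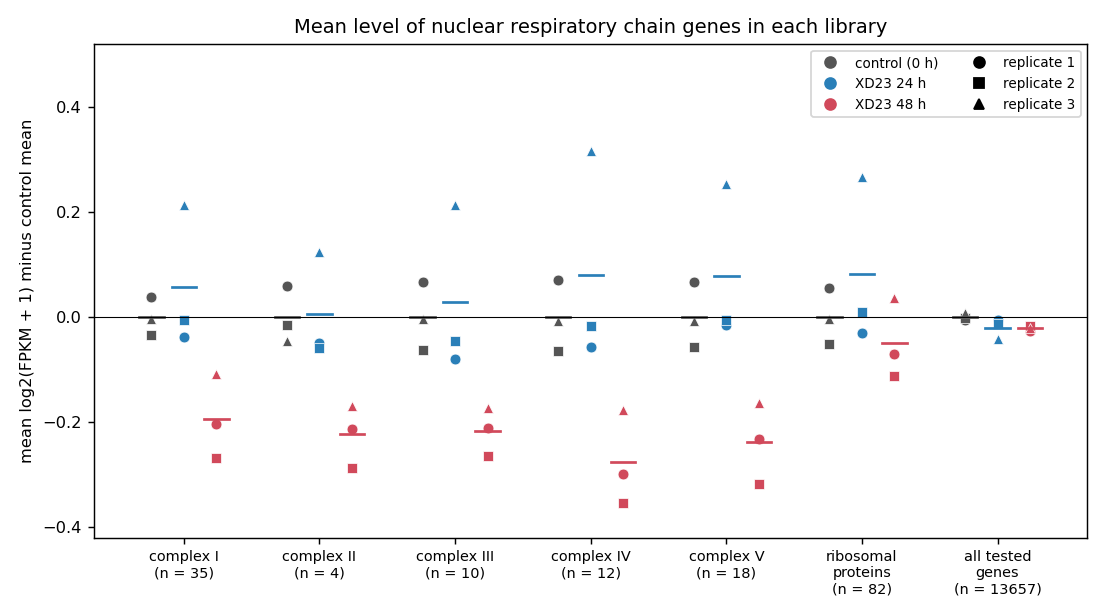
Mean log2(FPKM + 1) of the tested members of each complex, of ribosomal protein genes and of all tested genes in each library, as the difference from the control mean (vertical axis, log2 units). Bars are group means over 3 libraries. In complexes I to V the points of 48 h lie below 0 and the third 24 h library (blue triangle) above 0.1, and that library is also the highest for ribosomal protein genes.

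Genes that work with the subunits were read from 6 further lists, and the genes named from them were chosen after their values were seen. The counts stand beside 15.2% of all tested genes called lower and 13.3% called higher, with a median of -0.02. Of 47 tested assembly factors, which build the complexes without being part of them, 13 fell at 48 h over control (27.7%, median log2 fold change -0.16). BCS1L, which inserts the Rieske protein into complex III, stood at 9.48, 9.77 and 9.85 FPKM at 48 h, against 15.2, 13.4 and 14.2 FPKM in the control, with a log2 fold change of -0.51 ± 0.05 (SE, adjusted p = 0.000173). NDUFAF8 and NDUFAF2, factors of complex I, had log2 fold changes of -0.49 ± 0.11 (SE, adjusted p = 0.013) and -0.43 ± 0.07 (SE, adjusted p = 0.00247). COA7, a factor of complex IV, had a log2 fold change of -0.38 ± 0.06 (SE, adjusted p = 0.00179). ATPAF1, a factor of the F1 head, had a log2 fold change of -0.33 ± 0.05 (SE, adjusted p = 0.00266).

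Of 15 tested genes for mobile carriers and coenzyme Q synthesis, 7 fell (46.7%) and 1 rose (median log2 fold change -0.18). Without any one of the 48 h or control libraries, only 1 to 4 fell, where 10.1% to 11.9% of all tested genes were called lower. COQ2, which attaches the side chain of coenzyme Q, had a log2 fold change of -0.33 ± 0.08 (SE, adjusted p = 0.0121), and PDSS1, which helps make that chain, had a log2 fold change of -0.31 ± 0.08 (SE, adjusted p = 0.0194). SQOR, which feeds electrons from sulphide into coenzyme Q, rose, with a log2 fold change of 0.42 ± 0.12 (SE, adjusted p = 0.0281). Cytochrome c itself, CYCS, stood at 54.2, 51.4 and 56.2 FPKM at 48 h, against 67.8, 60.5 and 64.9 FPKM in the control, with a log2 fold change of -0.25 ± 0.08 (SE, adjusted p = 0.0555), and was not called. Of 10 tested carriers of adenine nucleotides and phosphate and related proteins, 2 fell (20%, near the share of all tested genes; median -0.14): UCP2, an uncoupling protein family member, with a log2 fold change of -0.61 ± 0.07 (SE, adjusted p = 0.00066), and VDAC3, with a log2 fold change of -0.19 ± 0.06 (SE, adjusted p = 0.0352). Single left-out libraries ended the calls of PDSS1, SQOR and VDAC3 (adjusted p up to 0.0666, 0.0922 and 0.105). Of 17 enzymes of pyruvate oxidation and the tricarboxylic acid cycle, 5 fell (29.4%) and 1 rose (median -0.12). DLD, a subunit shared by the oxo-acid dehydrogenases, had a log2 fold change of -0.41 ± 0.05 (SE, adjusted p = 0.000493), IDH3B had a log2 fold change of -0.31 ± 0.05 (SE, adjusted p = 0.00253), and IDH2, the NADP-dependent isocitrate dehydrogenase, rose, with a log2 fold change of 0.38 ± 0.05 (SE, adjusted p = 0.00142). Among these enzymes 2 fell without control library 1 or without 48 h library 2, where 10.3% and 10.1% of all tested genes were called lower. Without the third 24 h library 9 fell, where 20.5% of all tested genes did.

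Of 20 tested regulators of respiratory genes, 6 fell (30%) and 2 rose (median -0.02). TFAM, which packages mitochondrial DNA and takes part in its transcription, stood at 30.2, 29.9 and 28.9 FPKM at 48 h, against 37.6, 38.5 and 37.5 FPKM in the control, with a log2 fold change of -0.34 ± 0.03 (SE, adjusted p = 0.000187). LONP1, a matrix protease, had a log2 fold change of -0.43 ± 0.04 (SE, adjusted p = 0.000232). NRF1 stood at 5.21, 5.17 and 4.72 FPKM at 48 h, against 4.36, 4.11 and 4.01 FPKM in the control, with a log2 fold change of 0.23 ± 0.05 (SE, adjusted p = 0.0116), and YY1 stood at 31.2, 31.4 and 30.5 FPKM at 48 h, against 23.9, 24.3 and 25.3 FPKM in the control, with a log2 fold change of 0.33 ± 0.04 (SE, adjusted p = 0.000419). The calls of TFAM, LONP1 and YY1 held under all 20 alternatives and that of NRF1 under the 19 in which it was tested (it did not pass the filter at 5 FPKM). The number of regulators that fell was 3 without 48 h library 1, where 11.3% of all tested genes were called lower. Without the third 24 h library 4 rose, where 2365 of 13543 tested genes were called higher. GABPA, which binds the ETS motif, had a log2 fold change of 0.07 ± 0.04 (SE, adjusted p = 0.256) and was not called. At 48 h over 24 h, with the third 24 h library included, GABPA was called higher (0.20 ± 0.04 SE, adjusted p = 0.00949). In the same list and at 48 h over control, GABPB2 fell (-0.31 ± 0.08 SE, adjusted p = 0.0161). GABPB1 was not called (-0.03 ± 0.08 SE, adjusted p = 0.786). PPARGC1A was at 0.139, 0.217 and 0.168 FPKM at 48 h, against 0.131, 0.147 and 0.125 FPKM in the control, below the filter.

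The 13 subunits encoded in mitochondrial DNA, partners of the nuclear ones in complexes I, III, IV and V, did not move one way at 48 h over control. In that comparison 2 fell (15.4%) and 4 rose (30.8%), with a median of 0.04. MT-CYB, the partner of CYC1 and UQCRC2 in complex III, stood at 1967, 1997 and 1944 FPKM at 48 h, against 1562, 1614 and 1451 FPKM in the control, with a log2 fold change of 0.35 ± 0.05 (SE, adjusted p = 0.000861). MT-ND2 rose, with a log2 fold change of 0.27 ± 0.05 (SE, adjusted p = 0.00604), and so did MT-CO1 and MT-CO3, with a log2 fold change of 0.14 ± 0.04 (SE, adjusted p = 0.044) and 0.15 ± 0.04 (SE, adjusted p = 0.0303). MT-ND1 stood at 2268, 2104 and 2202 FPKM at 48 h, against 2639, 2786 and 2539 FPKM in the control, with a log2 fold change of -0.28 ± 0.05 (SE, adjusted p = 0.00571), and MT-CO2 had a log2 fold change of -0.15 ± 0.05 (SE, adjusted p = 0.0464). Leaving out any one library except the third 24 h library ended the calls of MT-CO1, MT-CO2 and MT-CO3 (adjusted p up to 0.155, 0.155 and 0.104), while those of MT-CYB, MT-ND1 and MT-ND2 held without any one library. With no filter (adjusted p = 0.229 and 0.420) and with quantile normalization, MT-ND1 and MT-ND2 were not called either, and MT-CYB was called under all 20 alternatives. Their levels depend on capture by poly(A) and may include nuclear copies of mitochondrial DNA, whose part was not tested. At 48 h over 24 h, with the third 24 h library included, 5 of these 13 subunits fell (38.5%) and 0 rose. The median was -0.13, and 16.3% of all tested genes were called lower and 16% higher. At 24 h no gene of the 6 lists was called by limma. Of their 122 tested genes, 10 were higher (8.20%) and 2 lower (1.64%) at an unadjusted p under 0.05, against 2.78% and 4.66% of all tested genes. These pooled counts do not describe each list. The median log2 fold change at 24 h was 0.13 for the mitochondrially encoded subunits (range 0.01 to 0.27) and -0.03 to 0.04 for the other lists. All of these values include the third 24 h library.

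**Figure D5:**
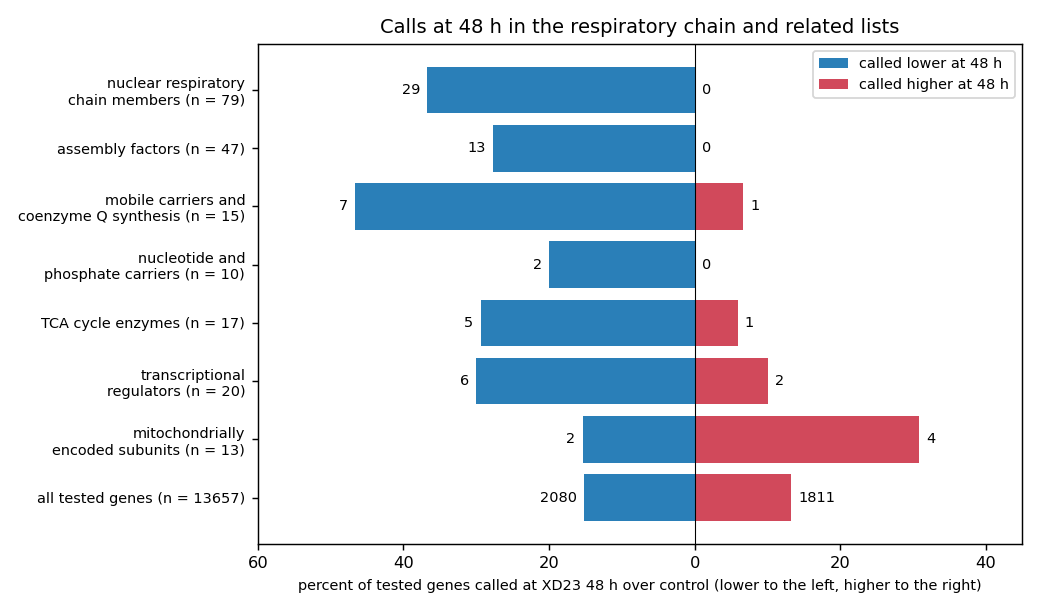
Percent of tested genes called lower (left of 0) and higher (right of 0) at XD23 48 h over control, for the nuclear-encoded members, 6 related lists and all 13657 tested genes, with the number called beside each bar. The members, the assembly factors and the nucleotide and phosphate carriers have bars to the left only. The mitochondrially encoded subunits have 2 genes to the left and 4 to the right.

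Some levels are less certain than others. In 47 members part of the exon sequence overlaps another gene, by at least 10% in 33, and no strand-specific counting is stated. Of 42 tested members with such overlap 15 fell, and of 37 without overlap 14 fell, with medians of -0.23 and -0.25. Of the 87 members, 46 have named pseudogenes, and 19 of these fell, as did 10 of 33 tested members without one. NDUFA7, NDUFA13, NDUFV2 and NDUFA9 were listed at 0.376, 0.933, 1.21 and 1.55 FPKM at most, although they encode parts of the same enzyme as members at far higher levels per length. The 8 members that were not tested are NDUFA7, NDUFA13, NDUFA4L2, COX6B2, COX7A1, COX8C, ATP5MGL and the readthrough gene ATP5MF-PTCD1. The isoforms COX4I2, COX6A2 and COX7B2 were not analysed here.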

How the data were processed

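RNA of 143B cells was sequenced as paired-end libraries after oligo(dT) selection, per the labels' protocols. The authors deposited 1 table of FPKM values per gene and library. Per the submitters' processing notes, HISAT2, featureCounts from Subread, DESeq2 and hg38 were involved; no versions, settings or strand mode are given in the sources used here. Total depth was recovered from the FPKM step that 1 fragment makes on a gene of known exon length. Of genes with a known length, 58.8% came out as whole fragments (within 0.001). The values were therefore not turned back into counts, and FPKM were tested on a log scale.

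Genes with at least 1 FPKM in at least 3 of 9 libraries were tested with limma 3.58.1 in R 4.3.3 on log2(FPKM + 1), 1 mean per group, a trended empirical Bayes variance, 6 residual degrees of freedom, two-sided, with Benjamini-Hochberg adjustment over all 13657 tested genes and a threshold of 0.05. Fold changes on the log2(FPKM + 1) scale understate changes of low genes. The fit was run on simulated data with independent noise of equal spread for every gene. Such data hold no deviating library and no drift with gene length, so they cannot show how the fit deals with these. Groups came from the titles. Exon lengths, overlaps and pseudogenes came from GENCODE 29, which held 35585 of the 36810 genes, and promoters from RefSeq (GRCh38.p14). Tables and motif matches were made with Python 3.11.15.

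Members and lists were chosen with earlier results of these data known. Named members are, per complex, up to 4 called ones with the greatest absolute change at 48 h, the 2 with the smallest, core subunits and isoforms, and up to 6 called ones per other comparison. The 20 alternatives changed pseudocount, filter, scaling, variance model, weights, samples, replicate block or length adjustment, or left out 1 library. Their use on the related lists was added after seeing the data. The counts include 1 member that is not reported here by itself. No SD is given beside values printed for every library.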

Additional observations from a re-analysis of the deposited data

Results flagged for a closer look

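The changes at 48 h over control and at 24 h over control differed from each other by the test of 48 h against 24 h (limma on log2(FPKM + 1), Benjamini-Hochberg adjustment), which is the test of that difference because the control cancels. By it 42 of 79 tested members were lower at 48 h, where 16.3% of all tested genes were. The log2 fold changes at 48 h over 24 h of the named members that passed it are given here. In complex I they were -0.47 for NDUFA2, -0.46 for NDUFB3, -0.42 for NDUFS5, -0.37 for NDUFS6 and -0.24 for NDUFS1. In complex II they were -0.41 for SDHD, -0.30 for SDHC and -0.22 for SDHB. In complex III they were -0.52 for UQCRQ, -0.51 for UQCR10, -0.31 for CYC1 and -0.21 for UQCRC2. In complex IV they were -0.54 for COX7B, -0.52 for NDUFA4, -0.40 for COX6C, -0.39 for COX6B1 and -0.37 for COX5B. In complex V they were -0.63 for ATP5MC1, -0.50 for ATP5MF, -0.47 for ATP5PF, -0.39 for ATP5MC3 and -0.36 for ATP5F1B. The third 24 h library was the highest of the 24 h libraries for 75 of the 79 tested members, and without it 37 of the 42 members were still called. The value of UQCR10 was then -0.31, that of COX5B -0.24, that of NDUFA4 -0.38 and that of COX6C -0.28, while that of NDUFS1 was -0.25. Of the 20 alternatives, 5 ended the call of UQCR10 and 5 that of SDHB. For NDUFA2, COX6C and COX5B the number was 3 each, and for NDUFB3 it was 2. The call of UQCR10 was lost without any one of the 48 h libraries (adjusted p up to 0.0821). The calls of the other members named here held under all 20.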

How the results depend on the processing

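At 48 h over control, 29 members were called lower. The number was 16 with no filter, 50 with array weights and 49 with only the groups compared, where 4.12%, 21.0% and 19.5% of all tested genes were called lower, against 15.2%. It was 23 to 34 under the other settings and 12 to 49 when 1 library was left out. The shares of all tested genes called lower were then 13.1% to 21.9% and 10.1% to 20.5%. The count of members called higher was 0, and 1 with quantile normalization or length adjustment, and 0 to 0 with 1 library left out. At 24 h, the counts were 0 under all alternatives. At 48 h over 24 h, 42 were called lower. The number was 22 with no filter, where 4.36% of all tested genes were called lower, against 16.3%. It was 32 to 51 under the other settings and 21 to 49 when 1 library was left out. For all tested genes the shares called lower were 13.6% to 24.3% and 11.0% to 17.6%. The count called higher was 0, and 1 with the 5 FPKM filter, quantile normalization, array weights, the replicate block or length adjustment, and 0 to 1 with 1 library left out. The cause of these shifts was not tested.

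Of the log2 fold changes of named genes, those that changed sign lay near 0 and were not called. NDUFA10 was 0.0174 with median-of-ratios scaling, 0.0006 with array weights and -0.011 to 0.0098 when 1 library was left out. COX8A was 0.0343 with length adjustment. With 1 library left out, COX8A ranged over -0.13 to 0.0166, NDUFV3 over -0.0586 to 0.0332, SDHA over -0.0748 to 0.0038 and ATP5IF1 over -0.0147 to 0.0625. No member called lower at 48 h changed sign under any of the 20 alternatives. The log2 fold changes of MT-ND1, MT-ND2 and MT-CO3 at 48 h over control were 0 with quantile normalization, which gives the few most abundant genes of each library the same values.

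Replicate numbers are shared by the groups but no label says that they pair cultures, and deviations of same-numbered libraries correlated at -0.06 to 0.24. With the replicate block, 34 members were lower at 48 h over control and 49 at 48 h over 24 h, where 14.7% and 16.1% of all tested genes were. The 3 libraries a group limit what could be called: UQCRC1 and ATP5F1A, with standard errors of 0.04 and 0.05, had log2 fold changes of 0.09 and -0.09 that did not pass.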
